A study of Mus musculus with 21 samples.

Results

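The transcripts of 7 GABA-A receptor subunit genes were followed in the cortex and hippocampus of mice that express the C9orf72 dipeptide repeat protein poly-GA in excitatory neurons. The genes were Gabra2, Gabra3, Gabra4, Gabra5, Gabrb1, Gabrb2 and Gabrd, found by symbol among the 64361 gene rows of the count table. They encode 4 alpha subunits, 2 beta subunits and the delta subunit, and all 7 passed the filter on low counts in each comparison below. Another 9 subunit genes, not the whole remainder of the family, were listed for comparison.

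GA-Camk2a mice carry a GFP-tagged poly-GA transgene behind a floxed stop cassette, which the Camk2a-Cre driver removes in excitatory neurons. They were compared with mice labelled ctrl. The labels do not give which of these alleles the sequenced controls carried, and the study calls the controls in its staining of this line Camk2a. Both lines were kept on the C57BL/6J background, the GA-Camk2a mice came from 2 litters, and per the labels all mice were killed when the transgenic mice reached their humane endpoint, at 30 to 40 weeks. RNA was measured by prime-seq, a bulk method that counts the 3′ ends of polyadenylated transcripts. The cortex gave libraries from 5 control and 6 GA-Camk2a mice, and the hippocampus from 4 control and 6 GA-Camk2a mice. These numbers follow the labels, and the study's text gives the control numbers of the tissues the other way round. The same animals gave both tissues, except control mouse 38, which gave cortex only.

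GABA-A receptors are chloride channels built of subunits around a pore, and they carry most fast inhibition in the brain. Alpha and beta subunits form the binding sites for GABA. Receptors with a gamma subunit gather mostly at synapses, while receptors with the delta subunit lie outside synapses and respond to the low ambient level of GABA. The alpha subunit sets much of the location and drug sensitivity of a receptor. Alpha 5 is known for its abundance in hippocampal pyramidal cells, and alpha 4 is the usual partner of delta in forebrain neurons.

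Most of these genes lie in clusters with other subunit genes. In the GENCODE annotation of GRCm38, Gabra2, Gabra4 and Gabrb1 share a cluster with Gabrg1 on chromosome 5, and Gabra5 lies near Gabrg3 on chromosome 7. Gabrb2 lies near Gabra6 on chromosome 11, Gabra3 lies between Gabre and Gabrq on chromosome X, and Gabrd lies on chromosome 4. RefSeq promoter sequence (GRCm38.p6) was at hand for 6 of the 7 genes. Gabrd had no entry. The stretches upstream of Gabra5 and Gabra4 are shown because Gabra5 had the largest genotype difference of the 7 genes in hippocampus and Gabra4 passed the test in both tissues. Both are on the minus strand and are printed 5′ to 3′. The Gabra5 stretch, chr7:57510060-57510309, ends at the base before the transcript start, and its capitals mark matches to the E-box CANNTG. The Gabra4 stretch, chr5:71658364-71658558, stops 55 bases short of the start, where an exon of Gabrb1 lies on the other strand, and its capitals mark the GC box GGGCGG read on the opposite strand.
Gabra5: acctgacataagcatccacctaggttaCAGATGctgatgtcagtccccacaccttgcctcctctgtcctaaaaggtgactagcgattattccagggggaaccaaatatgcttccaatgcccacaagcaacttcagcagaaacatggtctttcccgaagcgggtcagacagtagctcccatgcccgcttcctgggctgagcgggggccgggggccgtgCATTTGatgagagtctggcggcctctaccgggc
Gabra4: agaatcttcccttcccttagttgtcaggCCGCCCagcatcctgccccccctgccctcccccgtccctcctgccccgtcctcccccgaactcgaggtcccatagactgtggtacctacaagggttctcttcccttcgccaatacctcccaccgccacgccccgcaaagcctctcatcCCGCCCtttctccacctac
Each stretch holds 2 matches. On both strands, an E-box was found in 66.2% and a GC box in 32.7% of the 32851 RefSeq windows of 250 bases upstream of a start. The Gabra5 window had neither the cyclic AMP response element TGACGTCA, found in 1.55% of windows, nor TATAAA (12.4%), GGGCGG or the EGR1 motif GCGTGGGCG (0.536%). A match describes letters in a window and no measured binding.

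Total counts per library ran from 1048201 to 5888102, with a mean of 3777210 in hippocampus controls against 2179730 in GA-Camk2a hippocampus and between 1937090 and 2092580 in the cortex groups. Levels are given as CPM, counts scaled to the same total of gene counts in each library, so they compare libraries for 1 gene and not genes with each other. The labels name 2 batches, and each genotype was present in both batches in each tissue. Transcripts of the GFP tag were counted 0 to 4 times per library, too few to check the genotype labels. The tissue labels were checked on control mice, in which 4 of 4 dentate granule cell markers were higher and 6 of 6 striatal markers lower in hippocampus than in cortex. Of 3 CA1 markers 2 were higher there and Wfs1 had -0.23 ± 0.12 (edgeR adjusted p = 0.22). The 4 cortical layer markers did not move together, since Cux2 and Tbr1 were lower in hippocampus, Fezf2 was higher (0.50 ± 0.15, edgeR adjusted p = 0.034) and Rorb had 1.01 ± 0.55 (edgeR adjusted p = 0.23). The summed level of these 4 was uneven in hippocampus controls, from 165 CPM through a median of 186 CPM to 1527 CPM. In GA-Camk2a hippocampus it ran from 186 CPM through a median of 235 CPM to 5370 CPM. Tests are edgeR's quasi-likelihood tests fitted over all genes, with p-values adjusted by Benjamini and Hochberg over all genes and a threshold of 0.05. Errors of log2 fold changes are standard errors.

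To see where each subunit is found without the transgene, hippocampus was compared with cortex in the control mice. Gabra5, Gabrb1 and Gabra2 were higher in hippocampus, Gabrd and Gabra3 were lower, and Gabra4 and Gabrb2 did not pass the threshold. Of all 14435 genes tested, 8.69% were higher and 7.60% lower in hippocampus against 3 and 2 of the 7 subunits. Gabra5 had the largest difference of the 7 genes, with a mean of 52.1 ± 7.85 CPM in cortex (SD, n = 5) and of 135 ± 20.5 CPM in hippocampus (SD, n = 4). Its log2 fold change was 1.32 ± 0.13 (edgeR adjusted p = 2.4e-06). Gabrb1, a beta subunit of the chromosome 5 cluster, rose by 0.83 ± 0.11 on the log2 scale (edgeR adjusted p = 6.6e-05). Its neighbour Gabra2, an alpha subunit at synapses of forebrain neurons, rose by 0.76 ± 0.17 (edgeR adjusted p = 0.0042).

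Gabrd was the subunit with the largest fall from cortex to hippocampus. Controls had a mean of 56.4 ± 12.2 CPM (SD, n = 5) in cortex against 27.0 ± 3.22 CPM (SD, n = 4) in hippocampus, and the log2 fold change was -1.12 ± 0.13 (edgeR adjusted p = 2.1e-05). Gabra3, an alpha subunit on the X chromosome, changed by -0.80 ± 0.14 (edgeR adjusted p = 0.00066). For these 5 genes the control libraries of the tissues did not overlap, as for 13.7% of all genes tested. Gabra4 differed by -0.16 (95% interval -0.38 to 0.06) and Gabrb2 by -0.09 (-0.57 to 0.39), so neither a small nor, for Gabrb2, a moderate difference can be set aside. Gabrb2 rested on 8 to 38 counts per control library. The same 5 genes were called in every alternative analysis and with any 1 library left out.

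**Figure D1:**
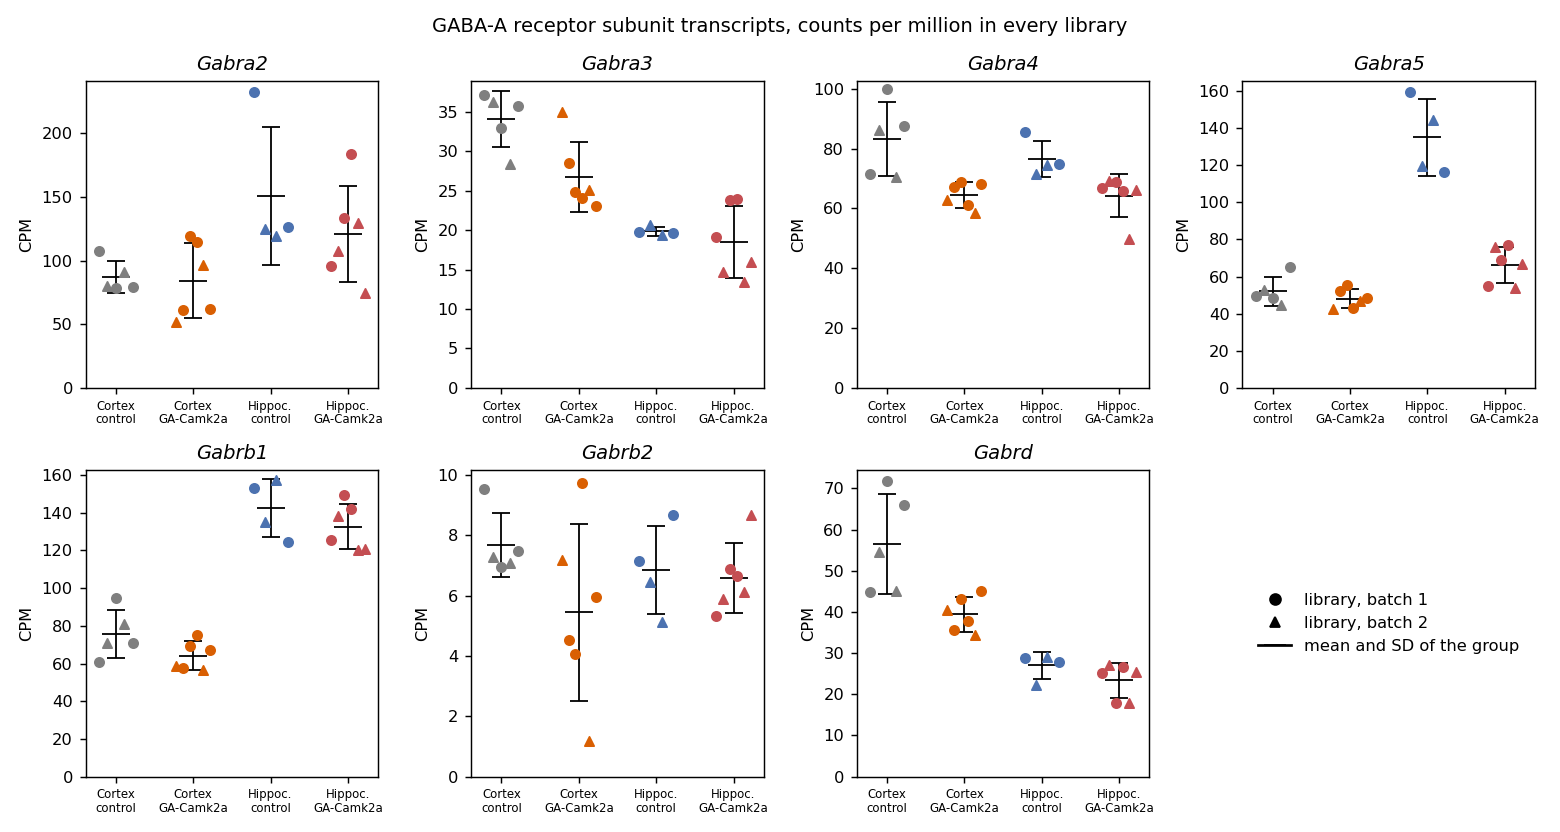
CPM of each of the 7 subunit genes (vertical axes, linear, from 0) in every library of the 4 groups, with circles for batch 1, triangles for batch 2 and bars for the mean and SD. In the panel of Gabra5 the hippocampus controls sit between 116 and 159 CPM and the GA-Camk2a hippocampus libraries between 54.1 and 77.2 CPM.

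The comparison of GA-Camk2a with control mice in hippocampus asked which subunits change with neuronal poly-GA. Gabra5 fell by 52.3% and Gabra4 fell by 18.5%, and the other 5 genes did not pass the threshold. The Gabra4 call was lost in 9 of 10 fits with 1 library left out and in 8 of 10 other alternatives. Across all 14884 genes tested, 5.97% were lower and 4.97% higher, while 2 of the 7 subunits were lower and 0 were higher. All 7 fold changes were below 0, with a median of -0.25, against 47.8% of all genes below 0 and a median of 0.02. The 7 genes were chosen with earlier results of these data known, so these shares describe the set and do not test it. The groups did not overlap for Gabra5 and Gabra4, 2 of 7 genes, as for 9.62% of all genes. In bulk tissue, fewer cells of a type and less RNA per cell cannot be told apart.

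For Gabra5, the main alpha subunit of extrasynaptic receptors in hippocampal pyramidal cells, the controls had 159 CPM (mouse 11), 119.6 CPM (mouse 20), 144 CPM (mouse 31) and 116 CPM (mouse 37). The 6 GA-Camk2a libraries ran from 54.1 CPM through a median of 67.7 CPM to 77.2 CPM. Each GA-Camk2a library thus lay below each control library. The log2 fold change was -1.07 ± 0.11 (95% interval -1.30 to -0.83, edgeR adjusted p = 3.1e-05). Within batch 1 it was -1.08 ± 0.17 (adjusted p = 0.040) and within batch 2 it was -1.07 ± 0.14 (adjusted p = 0.0011), from edgeR fits to each batch. With all libraries thinned to the depth of the smallest it was -1.14 ± 0.13 (edgeR adjusted p = 3.0e-05). The call held in every alternative analysis and with any 1 library left out.

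In order of the Gabra5 group means, hippocampus controls (135 CPM) were followed by GA-Camk2a hippocampus (66.2 CPM), cortex controls (52.1 CPM) and GA-Camk2a cortex (47.9 CPM). The libraries of GA-Camk2a hippocampus overlapped those of cortex controls, whose values reached 65.1 CPM. Those of hippocampus controls overlapped no other group. The counts behind these values were 253 to 704 per library in hippocampus controls and 97 to 230 in GA-Camk2a hippocampus. In GRCm38, Gabra5 shares 148 exon bases with the antisense gene Gm9962, for which 1 to 15 counts were recorded per library. Whether the counting used strand is not given in the sources used here.

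Gabra4, the alpha subunit that pairs with delta, had 85.4 CPM in control mouse 11, 71.5 CPM in mouse 20, 74.6 CPM in mouse 31 and 74.8 CPM in mouse 37. The GA-Camk2a libraries ran from 49.6 CPM through a median of 66.3 CPM to 69.1 CPM. The groups were apart, by a gap smaller than the spread among the controls. The log2 fold change was -0.29 ± 0.09 (edgeR adjusted p = 0.048). When single libraries were left out in turn, 9 of 10 fits missed the threshold, with edgeR adjusted p up to 0.13 (without control mouse 11), and only the fit without GA-Camk2a mouse 23 kept it (0.042). DESeq2 without covariates gave an adjusted p of 0.082, and the call was also lost with upper quartile normalization, no filter, no batch term, thinned counts and within each batch. Gabra4 and Gabrb1 overlap by 46 exon bases at their 5′ ends, on opposite strands.

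The other hippocampal fold changes were -0.35 ± 0.19 for Gabra2, -0.25 ± 0.14 for Gabrd, -0.16 ± 0.21 for Gabrb2, -0.14 ± 0.15 for Gabra3 and -0.14 ± 0.09 for Gabrb1, with edgeR adjusted p from 0.27 to 0.71. Gabrb1 was the beta subunit with the tightest estimate, and its 95% interval ran from -0.33 to 0.06. Gabrd, the delta subunit, had 22.2 to 29.1 CPM in controls and 17.8 to 27.2 CPM in GA-Camk2a mice. For Gabra2 the interval ran from -0.74 to 0.05. Control mouse 11 stood apart for this gene, with 232 CPM against 119.7 to 126 CPM in the other controls. Without that library the Gabra2 fold change was -0.15 ± 0.19 (edgeR adjusted p = 0.72). With no filter on low counts it was -0.42 ± 0.11 and passed the threshold (edgeR adjusted p = 0.0060).

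In cortex, Gabrd fell by 31.5% and Gabra4 fell by 22.7% in GA-Camk2a mice, and the other 5 genes did not pass the threshold. Of 13058 genes tested, 6.17% were lower and 6.35% higher, against 2 and 0 of the 7 subunits. All 7 fold changes were again below 0, with a median of -0.35, against 50.6% of all genes and a median of -0.01. As in hippocampus, these shares describe a set chosen with earlier results known. Groups did not overlap for 1 of the 7 genes, Gabra4, and for 6.17% of all genes.

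Gabrd had 44.8 CPM in control mouse 11, 54.5 CPM in mouse 20, 71.8 CPM in mouse 31, 45.1 CPM in mouse 37 and 65.9 CPM in mouse 38. The GA-Camk2a libraries ran from 34.4 CPM through a median of 39.1 CPM to 45.1 CPM. The highest GA-Camk2a library, from mouse 41, reached the level of the lowest controls, and the rest lay below them. The log2 fold change was -0.55 ± 0.12 (95% interval -0.80 to -0.29, edgeR adjusted p = 0.0045). It was called with any 1 library left out, with edgeR adjusted p from 0.0024 to 0.024. Within batch 1 it was -0.61 ± 0.16 (edgeR adjusted p = 0.023). Within batch 2, with 2 libraries per genotype, it was -0.40 ± 0.21 (edgeR adjusted p = 0.44), and with thinned counts it was -0.42 ± 0.15 (edgeR adjusted p = 0.084).

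Gabra4 had 71.6 CPM in control mouse 11, 86.3 CPM in mouse 20, 100.03 CPM in mouse 31, 70.4 CPM in mouse 37 and 87.6 CPM in mouse 38. The GA-Camk2a libraries ran from 58.3 CPM through a median of 65.1 CPM to 68.9 CPM, all below the lowest control. The GA-Camk2a values lay closer together than the control values, with an SD of 4.33 CPM (n = 6) against 12.4 CPM (n = 5). The log2 fold change was -0.37 ± 0.10 (95% interval -0.58 to -0.16, edgeR adjusted p = 0.017). It missed the threshold without control mouse 20 (edgeR adjusted p = 0.052), without control mouse 31 (0.058), with no filter on low counts (-0.39 ± 0.12, 0.053), within batch 1 (-0.38 ± 0.13, 0.094) and within batch 2 (-0.36 ± 0.19, 0.45).

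Gabra5 in cortex had 49.6, 52.7, 48.4, 44.6 and 65.1 CPM in control mice 11, 20, 31, 37 and 38, and 42.2 to 55.2 CPM with a median of 47.5 CPM in GA-Camk2a mice. The groups overlapped over most of their range. Its fold change was -0.12 ± 0.12 (95% interval -0.36 to 0.12, edgeR adjusted p = 0.56), and ran from -0.20 without control mouse 31 to -0.003 without control mouse 38. Gabra3 had a fold change of -0.35 ± 0.14 (edgeR adjusted p = 0.10) and Gabrb1 of -0.25 ± 0.11 (edgeR adjusted p = 0.15). Gabrb2, with 2 to 27 counts per library, had -0.51 ± 0.30 (edgeR adjusted p = 0.30), and from -0.70 (without GA-Camk2a mouse 34) to -0.28 (without mouse 35) with 1 library left out. It was -0.98 in batch 2 alone. The Gabrb2 interval, from -1.14 to 0.12, is too wide to separate a large fall from none at this depth. Gabra2 had -0.04 ± 0.18 (edgeR adjusted p = 0.93), and the sign of this value changed with the library left out.

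**Figure D2:**
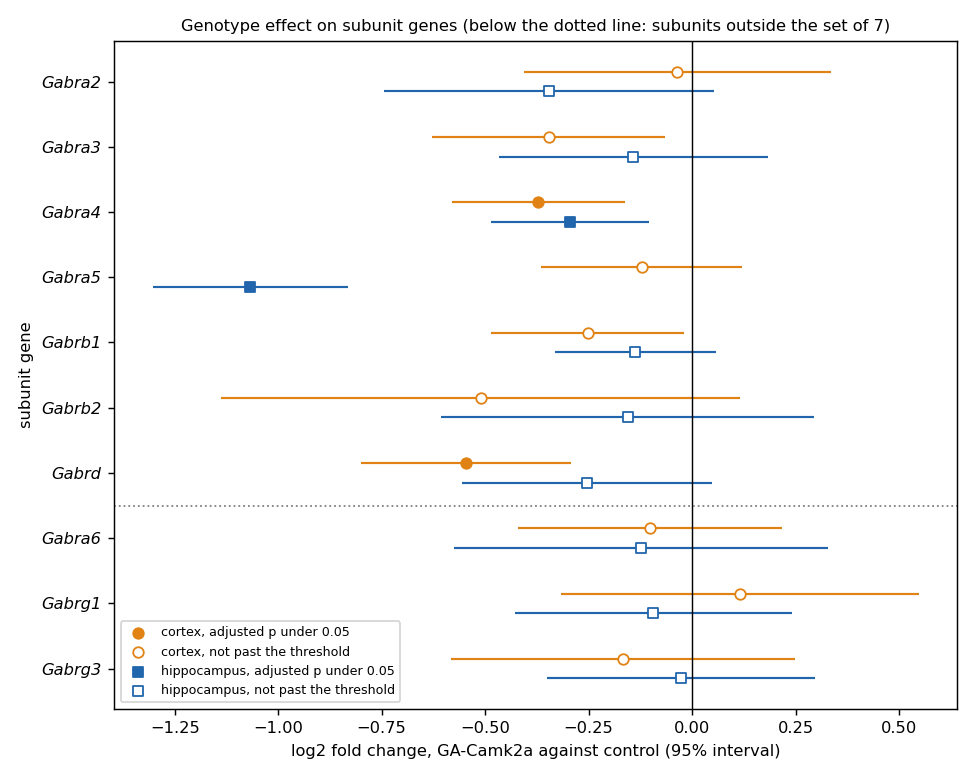
Log2 fold change of GA-Camk2a against control mice with 95% interval (horizontal axis) for the 7 genes and 3 other tested subunit genes, in cortex (circles) and hippocampus (squares), filled where the edgeR adjusted p is under 0.05. Gabra5 in hippocampus, at -1.07, lies apart from its own cortical value of -0.12.

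The genotype effects of the tissues were compared directly in 1 model over the 21 libraries. Only Gabra5 of the 7 genes passed this test, as did 0.400% of the 14751 genes tested. Its effect in hippocampus was lower than in cortex by a log2 difference of -0.97 ± 0.16 (edgeR adjusted p = 0.0047). The call held in every alternative analysis and with any 1 library left out, with differences from -1.12 to -0.86. The other 6 genes had edgeR adjusted p of 0.67 or more. For Gabrd the difference was 0.27 (95% interval -0.11 to 0.65) and for Gabra4 it was 0.06 (-0.19 to 0.31). The cortical call of Gabrd is therefore not shown to be particular to cortex. By the same test, effects were lower in hippocampus for 2 of 3 CA1, 1 of 2 CA3 and 2 of 6 excitatory neuron markers described below. For 3 of 6 striatal markers the effect was higher. The lower markers were Spink8 (-1.83 ± 0.25, edgeR adjusted p = 0.00080), Neurod6 (-1.23 ± 0.25, 0.027), Wfs1 (-0.96 ± 0.20, 0.027), Bok (-0.91 ± 0.20, 0.034) and Slc17a7 (-0.60 ± 0.14, 0.039). A lower effect in hippocampus was thus not particular to Gabra5.

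Of the 9 other subunit genes listed, 3 passed the filter. Gabrg1 and Gabrg3, gamma subunits, and Gabra6, best known from cerebellar granule cells, were called by edgeR in neither tissue (0 at an unadjusted p under 0.05). Gabrg1 had a log2 fold change of 0.12 ± 0.21 in cortex and -0.09 ± 0.16 in hippocampus. Gabra6 had -0.10 ± 0.15 and -0.12 ± 0.21. These intervals, as wide as -0.32 to 0.55 for Gabrg1 in cortex, do not show that the genes were unchanged. Gabre, Gabrp, Gabrq, Gabrr1, Gabrr2 and Gabrr3 did not pass the filter and had at most 14 counts in any library.

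Fold changes of neighbours in a cluster are set side by side here. On chromosome 7, Gabra5 was called lower in hippocampus (-1.07 ± 0.11), while Gabrg3 had -0.03 ± 0.15. In cortex neither was called, and Gabrg3 had -0.17 ± 0.20. In the chromosome 5 cluster, Gabra4 was called in both tissues and Gabra2, Gabrb1 and Gabrg1 in neither. The hippocampal Gabra4 call was lost in 9 of 10 fits with 1 library left out. With no filter on low counts, Gabra2 was called in hippocampus and Gabra4 was not. The differences between neighbours were not tested.

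Proteins that anchor or move GABA-A receptors were counted from a list of 18 genes, of which 17 were tested. In cortex 2 were lower and 1 was higher, against 6.17% and 6.35% of all genes. The lower genes were Plcl2 (-0.79 ± 0.16), a receptor trafficking factor, and Slitrk3 (-0.50 ± 0.16), an adhesion protein of inhibitory synapses, with edgeR adjusted p of 0.0026 and 0.043. Gabarap, which encodes a receptor-associated protein of vesicle traffic and autophagy, was higher (0.27 ± 0.09, edgeR adjusted p = 0.046). In hippocampus 6 were lower and 0 higher, against 5.97% and 4.97% of all genes, with a list median of -0.22 against 0.02 over all genes. These were Slitrk3 (-0.68 ± 0.12), Iqsec3 (-0.52 ± 0.14), Shisa7 (-0.52 ± 0.14), Gabarapl1 (-0.43 ± 0.08), Insyn1 (-0.39 ± 0.10) and Nlgn2 (-0.34 ± 0.09), with edgeR adjusted p from 0.0017 to 0.030. Shisa7 is an auxiliary subunit of GABA-A receptors and Nlgn2 encodes neuroligin 2, the adhesion protein of inhibitory synapses. Gphn, the gephyrin scaffold itself, had -0.33 ± 0.15 in cortex (edgeR adjusted p = 0.16) and -0.20 ± 0.11 in hippocampus (0.31).

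Of 7 tested genes that make, move or break down GABA, edgeR called 0 in cortex (0 at an unadjusted p under 0.05). It called 1 in hippocampus (4 at an unadjusted p under 0.05), where 4.97% of all genes were higher. Gad2, a GABA-synthesizing enzyme, was higher there (0.40 ± 0.10, edgeR adjusted p = 0.015). Gad1, the other such enzyme, had 0.34 ± 0.10 (0.051). Of the GABA-B receptor list, Gabbr2 was lower in cortex (-0.36 ± 0.12, edgeR adjusted p = 0.047) and in hippocampus (-0.50 ± 0.10, 0.0029), 1 of 5 and 1 of 6 genes tested. Of all genes, 6.17% and 5.97% were lower. Gabbr1 had -0.31 ± 0.11 and -0.29 ± 0.09 (edgeR adjusted p = 0.060 in both), and Kctd12b had 1.00 ± 0.32 in hippocampus (0.058). At an unadjusted edgeR p under 0.05 the list had 2 of 5 genes in cortex and 4 of 6 in hippocampus. Of all genes, 3388 of 13058 and 3682 of 14884 had such a p. Of 4 chloride transport genes, edgeR called 0 in cortex, where 3 had an unadjusted p under 0.05. In hippocampus the chloride exporter Slc12a5 (KCC2) was lower (-0.33 ± 0.10, edgeR adjusted p = 0.043) and the importer Slc12a2 (NKCC1) was higher (0.53 ± 0.15, 0.031). These were 1 lower and 1 higher of 4 genes, against 5.97% and 4.97% of all genes.

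**Figure D3:**
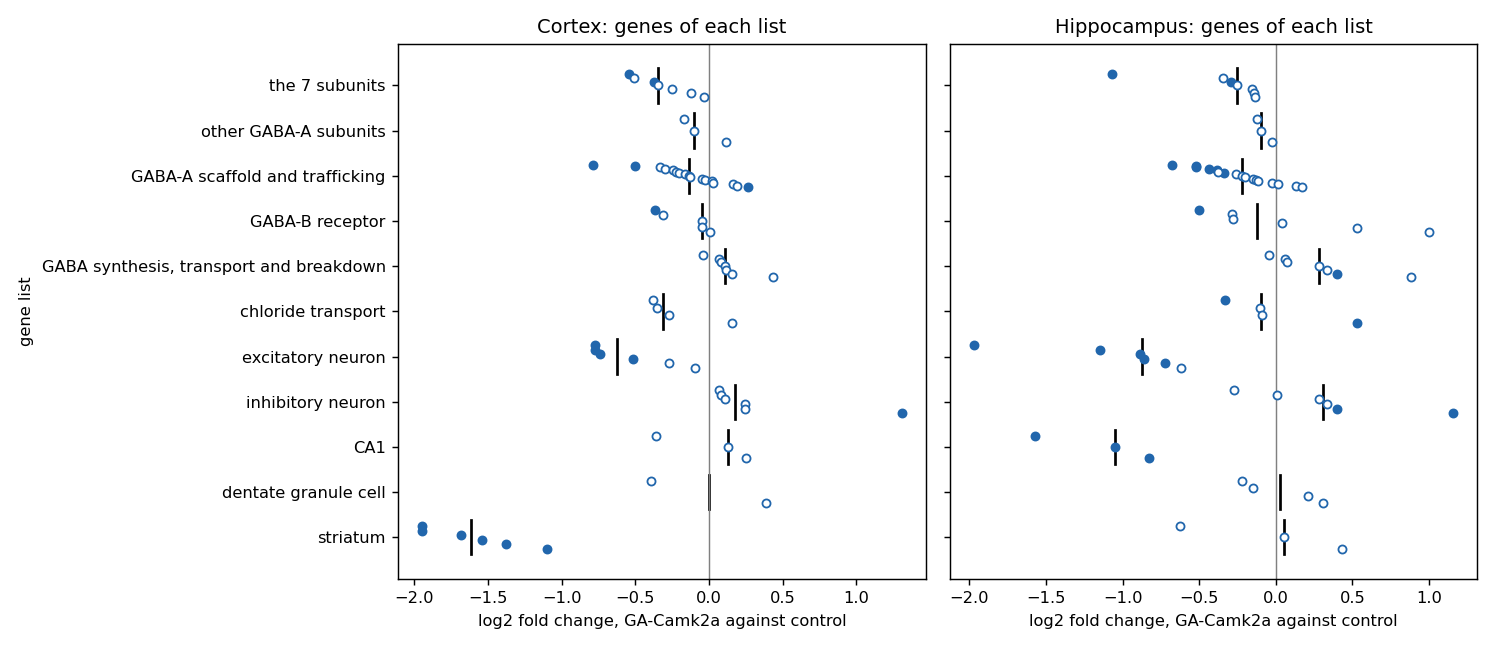
Log2 fold change of GA-Camk2a against control mice (horizontal axis) for the tested genes of each list, in cortex (left) and hippocampus (right), with 1 point per gene, filled where the edgeR adjusted p is under 0.05, and a black bar at the list median. In hippocampus the 7 subunits have a median of -0.25 and the CA1 markers of -1.05.

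Markers of several cell types moved with genotype beside these subunits. Of 6 excitatory neuron markers, 5 were lower in hippocampus and 4 in cortex, and their summed level was 2051 to 2593 CPM in control and 1084 to 1466 CPM in GA-Camk2a hippocampus. In cortex it was 1853 to 2347 CPM and 1195 to 1646 CPM. All 3 CA1 pyramidal cell markers were lower in hippocampus, Spink8 by -1.57 ± 0.13, Fibcd1 by -1.05 ± 0.23 and Wfs1 by -0.83 ± 0.13, with summed levels of 154 to 215 CPM in controls and 65.4 to 104 CPM in GA-Camk2a mice. None of these 3 was called by edgeR in cortex, also at an unadjusted p under 0.05 (0 genes). Pcp4 (-0.91 ± 0.10, edgeR adjusted p = 2.4e-06) and Bok (-0.43 ± 0.12, edgeR adjusted p = 0.016), listed as CA2 and CA3 markers, were lower in cortex. There they do not mark these hippocampal fields, and the CA2 list summed to 969 to 1341 CPM in control cortex. Of 4 CA2 markers tested, Rgs14 (-0.92 ± 0.11) and Amigo2 (-0.95 ± 0.18) were lower in hippocampus. The summed CA2 levels were 477 to 642 CPM in controls and 388 to 574 CPM in GA-Camk2a mice, and Pcp4, which was not called there (-0.23 ± 0.12, edgeR adjusted p = 0.23), made up most of that sum. Of 2 CA3 markers tested, Bok was lower (-1.33 ± 0.16) and Grik4 had -0.61 ± 0.20 (edgeR adjusted p = 0.072), with summed levels of 96.3 to 161 CPM and 49.6 to 84.2 CPM. The size of the CA1 marker falls spans that of Gabra5, and the part of CA1, CA2 and CA3 cells in the fall of Gabra5 was not tested.

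Of the 4 dentate granule cell markers, edgeR called 0 in hippocampus (0 at an unadjusted p under 0.05), and their summed levels of 80.0 to 111 CPM and 91.1 to 126 CPM overlapped. All 6 striatal markers were lower in GA-Camk2a cortex, with summed levels of 345 to 522 CPM in controls and 119 to 203 CPM in GA-Camk2a mice. In hippocampus edgeR called 0 of the 3 tested (1 at an unadjusted p under 0.05). Gabra4 and Gabrd are known from striatal and thalamic as well as cortical neurons, and the part of striatal tissue in their cortical fall was not tested. The 3 thalamic markers were called by edgeR in neither tissue (1 in each at an unadjusted p under 0.05). Among the 6 inhibitory neuron markers, Vip rose in both tissues and Gad2 in hippocampus. The log2 fold change of Sst in hippocampus was -0.28 ± 0.11 (edgeR adjusted p = 0.13, unadjusted p = 0.024). In cortex all 6 were above 0, with Sst at 0.24 ± 0.11 (edgeR adjusted p = 0.16, unadjusted p = 0.037) and Pvalb at 0.24 ± 0.12 (edgeR adjusted p = 0.19, unadjusted p = 0.048). In cortex and hippocampus, 4 and 5 of 6 astrocyte markers and 4 and 4 of 6 microglia markers were higher. Of 6 oligodendrocyte markers, Cnp was higher in cortex (0.35 ± 0.09, edgeR adjusted p = 0.013), and edgeR called 0 in hippocampus (0 at an unadjusted p under 0.05). Of the 4 cortical layer markers, Tbr1 was lower in cortex (-0.82 ± 0.12, edgeR adjusted p = 0.00010), and edgeR called 0 in hippocampus (1 at an unadjusted p under 0.05). No listed marker was at 0 in all libraries of a group. The part of glial RNA in the lower levels of the excitatory neuron markers was not tested. Mitochondrial transcripts made up 12.8% to 13.7% of counts in control and 10.9% to 13.5% in GA-Camk2a hippocampus.

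The pattern of each subunit over the 21 libraries was compared with that of 8480 genes by Pearson's r of log2 CPM, as a description that includes tissue, genotype and depth. Gabra5 was most like Rasgrf1 (r = 0.93), Rasd1 (0.93) and Abi1 (0.92). Gabrb1 was most like St6galnac5 (0.96), Ankrd11 (0.96) and Ptpra (0.94), and Gabrd was most like Ptn (0.94), Lamp5 (0.93) and Glrb (0.92). Gabra4 was nearest to Fjx1 (0.90), Serinc1 (0.87) and Rusc1 (0.86), and Gabra3 to Fxyd7 (0.90), Serpini1 (0.89) and Rasgef1b (0.88). The highest values were lower for Gabra2, at 0.79 with Peak1, 0.76 with Sf1 and 0.76 with Lmo1, and for Gabrb2, at 0.75 with Smg5, 0.74 with Bop1 and 0.72 with Hsd17b12. Among the 7 genes themselves, Gabra3 and Gabrd ran together most closely (r = 0.81), followed by Gabra5 and Gabrb1 (0.72) and by Gabra4 and Gabrd (0.69). Gabrb1 and Gabrd had the most negative value (-0.73). In control mice Gabrb1 was higher and Gabrd lower in hippocampus than in cortex.

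The cortical level of Gabra2 was 108, 79.9, 78.4, 91.1 and 79.0 CPM in control mice 11, 20, 31, 37 and 38, and ran from 52.1 CPM through a median of 79.5 CPM to 119 CPM in GA-Camk2a mice. In hippocampus the controls had 232, 125, 119.7 and 126 CPM in mice 11, 20, 31 and 37, and the GA-Camk2a libraries ran from 74.7 CPM through a median of 119 CPM to 184 CPM. Among GA-Camk2a mice, numbers 16, 23 and 41 were the lowest 3 and numbers 30, 34 and 35 the highest 3 in both tissues. The highest 3 had both libraries in the same batch and the lowest 3 had theirs in different batches, so mouse and batch layout cannot be told apart there. Over the 10 mice with both tissues, deviations of log2 CPM from the group mean had the same sign in cortex and hippocampus in 9 mice. Pearson's r was 0.81 (permutation p = 0.0047, adjusted over 7 genes 0.033) and Spearman's rho 0.76 (permutation p = 0.015, adjusted 0.10). Without mice 16 and 30, the farthest from the median in cortex, r was 0.88. With batch removed within each tissue, a choice made after seeing the data, r fell to 0.62 (permutation p = 0.062, adjusted over 7 genes 0.44), rho to 0.58 (permutation p = 0.088, adjusted 0.61), and 7 of 10 mice had the same sign.

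Within the 6 GA-Camk2a mice alone, Gabra2 had r = 0.83 (exact permutation p = 0.068) and rho = 0.77 (exact permutation p = 0.10), and 4 control mice are too few for a value. The other 6 genes had r from -0.04 to 0.12 over the 10 mice. Within the 6 GA-Camk2a mice their r ran from -0.10 (Gabra3) to 0.61 (Gabra4, exact permutation p = 0.19). Only 5 mice had both libraries in the same batch, 3 in batch 1 and 2 in batch 2, too few for a value within a batch. The Gabra2 relation was noticed in these data and then tested on them.

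**Figure D4:**
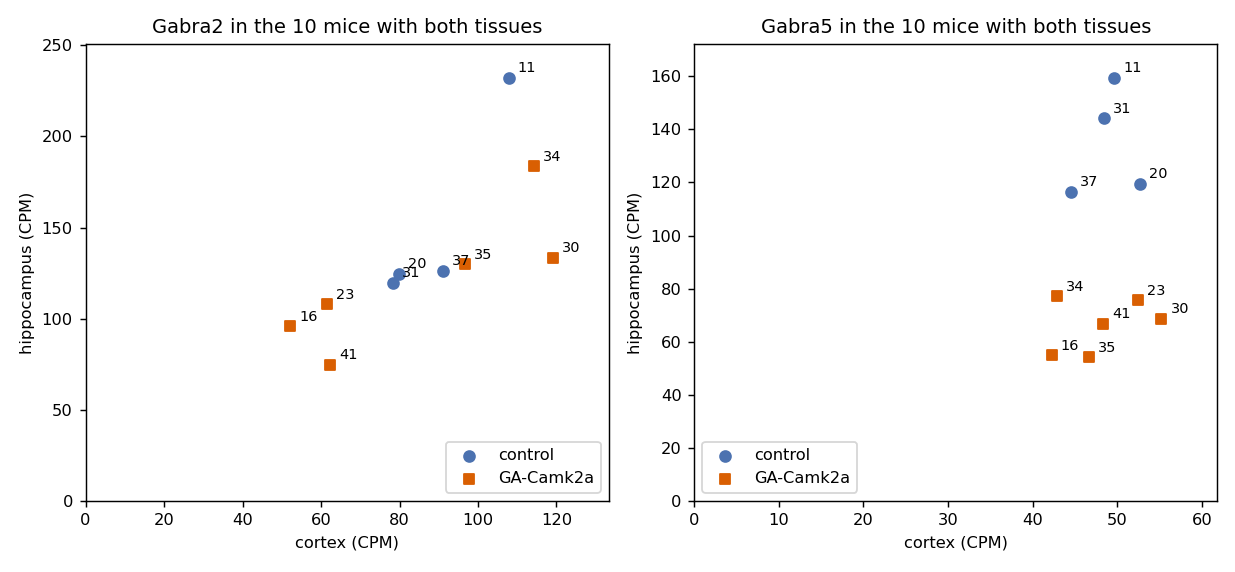
CPM in cortex (horizontal axis) and in hippocampus (vertical axis) of Gabra2 (left) and Gabra5 (right) for the 10 mice with both tissues, with mouse numbers beside the points, circles for control and squares for GA-Camk2a mice. For Gabra2 the GA-Camk2a mice 30, 34 and 35 lie above mice 16, 23 and 41 on both axes, with batch not removed, whereas for Gabra5 the genotypes separate along the hippocampal axis and overlap along the cortical axis.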

How the data were processed

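Cortex and hippocampus RNA of 11 mice was profiled by prime-seq in 21 libraries. The authors deposited raw whole-number counts for each gene, made with zUMIs on GRCm39 with a GFP sequence added. The submitters' processing notes name FastQC 0.11.8, cutadapt 1.12, STAR and DESeq2 1.44. Whether molecules or reads were counted, the annotation release, and the use of introns and strand are not given in the sources used here. If reads were counted, counting error understates technical error. Symbols were matched by Ensembl number to a GRCm38 annotation for 43308 of 64361 gene rows, which hold 96.1% of counts. Counts are on GRCm39, so coordinates (GRCm38.p6) are given only for promoter sequence. All 21 count columns were used and 0 were left out. The GFP row stayed out of totals and tests.

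Genotypes were compared in each tissue by edgeR 4.0.16 under R 4.3.3 (TMM normalization, filterByExpr with a minimum count of 10, quasi-likelihood F-test, batch as covariate), which also gave the tissue difference and the interaction over all libraries. For the GA-Camk2a data the study's methods name DESeq2 and give no design for it. DESeq2 1.42.0, without covariates and with batch, was run here as an alternative. Adjusted p-values are Benjamini-Hochberg values over all genes. Log2 CPM used a prior count of 2. Patterns were compared with genes that have a symbol and a mean log2 CPM of 4 or more, and the 3 most alike were named. Other alternatives were RLE and upper quartile normalization, no filter, no batch term, limma-voom (limma 3.58.1), thinned counts, each batch alone, a replicate block for the mouse, and leaving out each library. Replicates are separate mice by their numbers in the labels. The 46 pairs of libraries within groups had a chi-square per degree of freedom of 2.10 to 15.1, and none had identical counts. The libraries of a mouse are paired by its number in the labels. Correlations of their deviations ran from -0.23 to 0.28 and were above 0.1 in 5 of 10 mice, the 5 with both libraries in the same batch. The other 5 mice, with libraries in different batches, were all below 0, from -0.23 to -0.07. Agreement between the libraries of a mouse thus went with a shared batch. An effect of the mouse beside that of the batch was not tested. The 7 genes, the lists and the naming rule (the 7 genes, genes of the lists where a list is described, and the most alike genes) were chosen with earlier results of these data known. Results of a few listed genes are not reported here, and the lists were counted without them.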

Additional observations from a re-analysis of the deposited data

Results flagged for a closer look

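Each of the 28 sets of libraries (7 genes in 4 groups) was checked for a library far from the rest by Dixon's criterion, which by chance marks about 1 set in 20, and 3 were marked. Gabra2 in hippocampus was 232 CPM in control mouse 11, and the nearest control had 126 CPM. Gabra4 in hippocampus was 49.6 CPM in GA-Camk2a mouse 35, and the nearest library of that group had 65.6 CPM. Gabrb2 in cortex was 9.54 CPM in control mouse 11, from 10 counts, and the nearest control had 7.48 CPM. The effect of genotype on Gabra5 was lower in hippocampus than in cortex by a log2 difference of -0.97, by the edgeR test of the difference itself.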

How the results depend on the processing

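Of the 7 genes, 2 were called in cortex. The count was 1 with no filter on low counts (Gabrd), with thinned counts (Gabra4) and in batch 1 alone (Gabrd), 0 in batch 2 alone, and 1 to 2 with 1 library left out. In hippocampus 2 were called, and 1, Gabra5, with upper quartile normalization, DESeq2 with or without batch, no batch term, thinned counts, batch 1 alone and batch 2 alone. It was 1 to 2 with 1 library left out. With no filter the hippocampal pair was Gabra2 and Gabra5. The counts of 1 for the interaction and 5 for the tissue comparison did not move. Without the filter the median log2 fold change of all genes in the tissue comparison was 0.12. Gabra4 in hippocampus had adjusted p from 0.033 to 0.42 over the alternatives that kept all libraries or 1 batch. The sign turned for genes that were not called: Gabra2 in cortex (0.029 in batch 1 alone, 0.012 to 0.080 without control mouse 11 or 37 or GA-Camk2a mouse 16, 23 or 41, against -0.17 in batch 2 alone and -0.14 without GA-Camk2a mouse 30), Gabra3 in hippocampus (0.14 in batch 1 alone) and Gabrb2 in hippocampus (0.12 in batch 2 alone). The cause of these changes was not tested. With the mouse as a replicate block, the Gabra5 interaction was -1.07 ± 0.15 (edgeR adjusted p = 0.0048), and no call changed in the interaction or the tissue comparison. Depth limits Gabrb2 most, with 2 to 38 counts per library.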
